A study of Homo sapiens with 6 samples.

Results

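The 8 genes described here encode proteins that build iron-sulfur clusters or depend directly on that work: NFS1, ISCU, LYRM4, GLRX5, ISCA1, ISCA2, CIAPIN1 and LIAS. They were taken by gene name from tables of 45019 rows, and all 8 had a row and passed the filter on low values. They were measured by RNA sequencing of MDA-MB-468, an established human cell line from a breast cancer of the triple-negative kind. One group had been given 100 µM DETA/NO, a compound that slowly releases nitric oxide, for 10 days, with cells replated every 48 h and left 4 h to adhere before each new addition. The other group was untreated at day 10, and the labels name no engineered allele in either group. The labels name 3 samples per group, but DETA/NO replicates 1 and 2 came with the same value in every row under the same column header, and they were counted as 1 library, here called the shared library. That leaves n = 2 DETA/NO and n = 3 untreated libraries of a single cell line, with 28897422 to 34637343 reads each. The labels speak of pooling the cells of each replicate at replating, but do not say that the replicates were started separately, so the tests cover only how these 5 libraries vary, which may be technical. The series is concerned with nitric oxide as an inhibitor of FTO, an enzyme that removes methyl groups from mRNA, and asks how transcription differs after long exposure.

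Iron-sulfur clusters are small inorganic cofactors of iron and sulfide that carry electrons or hold substrates in enzymes of respiration, DNA replication and repair, and metabolism. In mitochondria, the cysteine desulfurase NFS1, held stable by LYRM4, passes sulfur to the scaffold ISCU, where a cluster forms; GLRX5 carries it onward, and ISCA1 and ISCA2 help to convert it to the larger cubane form needed by enzymes such as the lipoyl synthase LIAS. A separate cytosolic machinery, which includes CIAPIN1, supplies proteins outside mitochondria. Nitric oxide is known to react with iron-sulfur clusters. The values below are RNA levels and say nothing of clusters or protein.

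Of the 8 genes, 3 were higher in DETA/NO libraries and 0 were lower, but only 1, ISCA1, was higher when limma was run without its trend and robust options. Without these options 2262 of all 16409 tested genes were higher, against 3565 with them. ISCA1 was 1.21-fold, LYRM4 1.19-fold and GLRX5 1.13-fold the untreated level, while NFS1, ISCU, ISCA2, LIAS and CIAPIN1 did not pass the test. A gene counted as changed where limma, fitted to log2(normalized reads + 1) of 16409 genes, gave a Benjamini-Hochberg adjusted p under 0.05. By that rule 43.4% of all tested genes changed, 21.7% upward and 21.7% downward, so that 3 of 8 (37.5%) changed was no more than the share over all genes, and 37.5% higher stood beside 21.7%. The DETA/NO and untreated libraries did not overlap in 4 members, 3 above and 1 below, and in 61.2% of all tested genes. The count of 0 lower was also 0 at an unadjusted p under 0.05 in limma, and 0 in edgeR and in DESeq2. The median log2 fold change of the 8 genes was 0.0037, beside -0.0002 for all tested genes. No member changed 2-fold, and of all 16409 tested genes 362 rose and 259 fell by at least that and passed the test. A larger log2 fold change than that of ISCA1 was found in 15.6% of all tested genes.

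The promoters of the 3 genes that rose, and of ISCA2, the paralog of ISCA1 that did not pass the test, are shown so that the genes that moved together can be compared. Each is the 250 bases before the RefSeq transcript start (GRCh38.p14), read 5′ to 3′ on the gene's strand, and all 8 members had an entry. The windows of ISCA1 and GLRX5 lie wholly inside the GENCODE spans given below for these genes, and that of ISCA2 partly. For them, the RefSeq and GENCODE starts therefore differ. Capitals mark every match, on either strand, to 6 short motifs, and matches that touch or overlap run together.
ISCA1, chr9:86282539-86282788, minus strand: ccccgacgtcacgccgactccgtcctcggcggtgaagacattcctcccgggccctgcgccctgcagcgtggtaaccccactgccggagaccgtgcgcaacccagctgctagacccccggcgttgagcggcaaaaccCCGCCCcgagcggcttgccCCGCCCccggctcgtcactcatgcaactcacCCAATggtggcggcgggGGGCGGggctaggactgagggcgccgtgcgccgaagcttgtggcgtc
LYRM4, chr6:5260951-5261200, minus strand: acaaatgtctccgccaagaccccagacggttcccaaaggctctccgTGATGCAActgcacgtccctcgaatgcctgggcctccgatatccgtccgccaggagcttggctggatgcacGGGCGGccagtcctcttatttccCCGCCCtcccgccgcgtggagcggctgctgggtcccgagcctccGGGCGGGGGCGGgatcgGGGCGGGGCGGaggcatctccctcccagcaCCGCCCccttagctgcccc
GLRX5, chr14:95534800-95535049, plus strand: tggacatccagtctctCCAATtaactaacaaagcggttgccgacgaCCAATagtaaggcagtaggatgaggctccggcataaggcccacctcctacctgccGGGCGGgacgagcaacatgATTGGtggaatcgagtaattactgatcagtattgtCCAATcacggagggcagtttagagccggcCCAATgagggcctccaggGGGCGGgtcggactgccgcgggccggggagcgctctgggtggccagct
ISCA2, chr14:74493515-74493764, plus strand: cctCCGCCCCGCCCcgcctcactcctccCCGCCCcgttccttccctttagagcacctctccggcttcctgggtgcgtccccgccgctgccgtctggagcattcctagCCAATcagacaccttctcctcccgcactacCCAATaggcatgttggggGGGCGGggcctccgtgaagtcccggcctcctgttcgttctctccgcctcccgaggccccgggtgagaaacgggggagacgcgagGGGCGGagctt

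The motifs searched were the GC box (GGGCGG), the CCAAT box (CCAAT), an ETS motif (CCGGAAG), the cAMP response element (TGACGTCA), the C/EBP and ATF response element (TGATGNAA) and the core of the antioxidant response element (TGACNNNGC). The 3 promoters of the genes that rose shared the GC box, with 3 matches in ISCA1, 7 in LYRM4 and 2 in GLRX5, but ISCA2 had 5 and 42.3% of 27305 promoters of the same length had at least 1. A CCAAT box stood 5 times before GLRX5, once before ISCA1 and in 33% of all promoters, and 2 times before ISCA2. LYRM4 held the only C/EBP and ATF response element among the 8 members, a motif found in 3.19% of all promoters. Among members not shown, the cAMP response element (1.77% of all promoters) and the antioxidant core (11%) each occurred once before ISCU, and the ETS motif (8.82%) once before NFS1. The GC box also stood before ISCU (3 matches), CIAPIN1 (2) and NFS1 (1), so that 7 of the 8 members held it. A CCAAT box stood before LIAS (1 match). No motif searched was held by all 3 genes that rose and absent from ISCA2. A match describes letters in this window, and a lack of one says nothing about a factor.

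**Figure D1:**
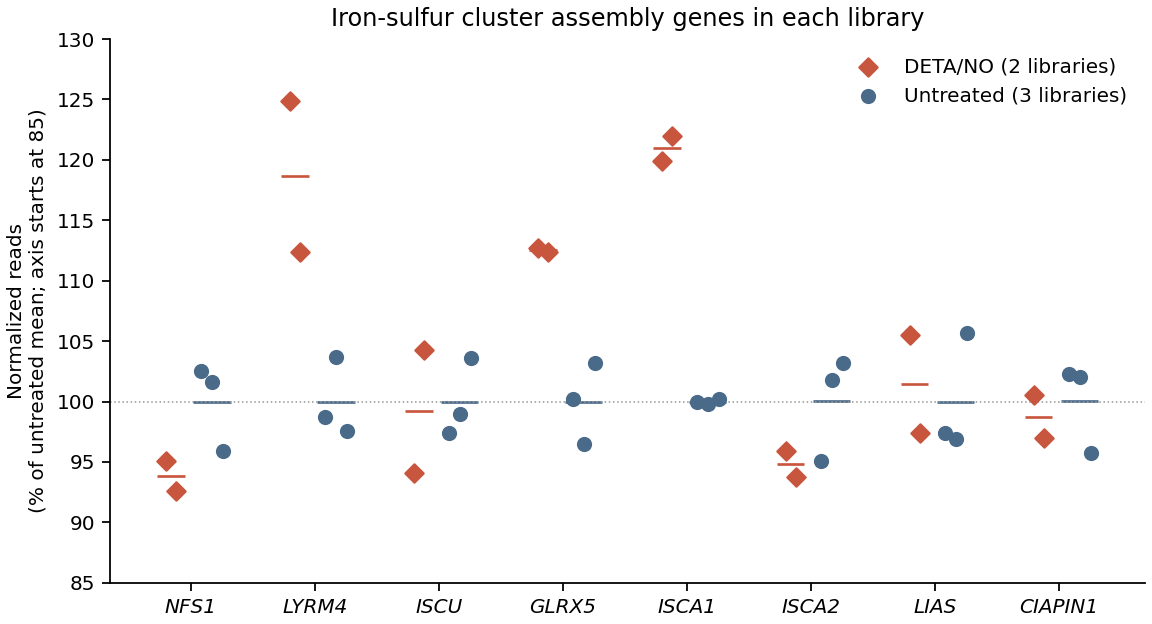
Normalized reads of each assembly gene (x axis) in each library, as percent of the untreated mean of that gene (y axis, starting at 85); diamonds are the 2 DETA/NO libraries, circles the 3 untreated libraries, and short lines the group means. For LYRM4, GLRX5 and ISCA1 both DETA/NO libraries lie above all untreated libraries, at 112.4% to 124.9% of the untreated mean.

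NFS1, on chromosome 20 at 35668055 to 35699359 (GRCh38), takes sulfur from cysteine. It had 518.6 normalized reads in the shared library and 505.2 in DETA/NO library 3, against 559.1, 554.3 and 523.1 in untreated libraries 1, 2 and 3. Both DETA/NO libraries lay below every untreated library, as they did in 30.8% of all tested genes, but untreated library 3 was close to the shared library. The log2 fold change of -0.09 (95% interval -0.23 to 0.05; limma adjusted p = 0.315) did not pass the test. Exons of AL109827.1 and ROMO1 cover 6.3% of the exon bases of NFS1, which makes its level uncertain. AL109827.1, on the same strand (4.8%), had at most 8.60 normalized reads in any library. ROMO1, on the opposite strand, had 453.8 to 501.3. Their part in the values of NFS1 was not tested.

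LYRM4, also called ISD11, binds and stabilizes NFS1; it lies on chromosome 6 at 5102593 to 5260939. Its normalized reads were 857.6 in the shared library and 772.0 in DETA/NO library 3, against 677.6, 712.2 and 670.0 in the untreated libraries. Both DETA/NO libraries stood above all untreated libraries, but they differed from each other by more than the untreated libraries did. The group means were 814.8 ± 60.6 (SD, n = 2) and 686.6 ± 22.5 (SD, n = 3), a log2 fold change of 0.25 ± 0.064 (SE; limma adjusted p = 0.00211). The call depended on the shared library, since without it the log2 fold change was 0.17 and the limma adjusted p 0.0973, and limma without trend and robust options gave 0.0524.

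ISCU, the scaffold on which the cluster forms, lies on chromosome 12 at 108562582 to 108569384. It had 823.3 and 912.5 normalized reads in the DETA/NO libraries, against 852.5, 866.2 and 906.6 in the untreated libraries. The DETA/NO libraries gave both the lowest and the highest value, so the groups overlapped fully. The 95% interval of its log2 fold change, -0.13 to 0.11, holds changes between 0.91-fold and 1.08-fold (limma adjusted p = 0.882).

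The 3 genes of the early step therefore did not share a direction that passed the test. Within each library, the ratio of LYRM4 to NFS1 reads per kb of exon was 1.06 and 0.975 in the DETA/NO libraries, against 0.773, 0.820 and 0.817 in the untreated libraries. The ratio was higher in both DETA/NO libraries; it was chosen after the values were seen and was not tested.

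GLRX5, the mitochondrial glutaredoxin that carries clusters, lies on chromosome 14 at 95533503 to 95544724. It had 1470 and 1467 normalized reads in the DETA/NO libraries, against 1308, 1260 and 1347 in the untreated libraries. The DETA/NO libraries were nearly equal and above all untreated libraries, as in 30.4% of all tested genes. Their means were 1469 ± 2.33 (SD, n = 2) and 1305 ± 44.02 (SD, n = 3), and the log2 fold change was 0.17 ± 0.048 (SE; limma adjusted p = 0.00445). Limma without its trend and robust options gave an adjusted p of 0.0541. Exons of SNHG10 and SCARNA13 on the opposite strand cover 18.2% of GLRX5's exon bases, and since it is not given whether reads were counted by strand, that part of its level is uncertain. SNHG10 itself had 59.8 and 54.1 normalized reads in the DETA/NO libraries, against 77.4, 57.9 and 58.2 in the untreated libraries (limma adjusted p = 0.513), far below GLRX5 in all of them, and SCARNA13 was listed at 0.

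ISCA1 and ISCA2 encode partner proteins of the late mitochondrial step. ISCA1, on chromosome 9 at 86264546 to 86283102, had 1661 and 1689 normalized reads in the DETA/NO libraries, against 1385, 1382 and 1388 in the untreated libraries. Its untreated values were closer together (SD 2.96, or 0.214% of the mean) than the 2.56% that counting error alone gives at its mean of whole reads, so its error is better read from the SE of the fit, which borrows spread from other genes. The DETA/NO mean of 1675 ± 20.03 (SD, n = 2) and the untreated mean of 1385 ± 2.96 (SD, n = 3) gave a log2 fold change of 0.27 ± 0.045 (SE; limma adjusted p = 9.42e-06). The log2 fold change lay between 0.25 and 0.29, with adjusted p of at most 0.0114, over 17 other analyses. By name, GENCODE lists 5 pseudogenes of ISCA1, and 1 each of ISCU, ISCA2 and CIAPIN1. Reads that match more than 1 copy make the levels of these genes uncertain.

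ISCA2, on chromosome 14 at 74493720 to 74497106, had 267.0 and 261.1 normalized reads in the DETA/NO libraries, against 264.7, 283.5 and 287.4 in the untreated libraries. The lowest untreated library lay between the DETA/NO libraries. Its log2 fold change of -0.08 (95% interval -0.27 to 0.11; limma adjusted p = 0.548) did not pass, and 241 to 311 whole reads per library limit its precision, with a counting error of 5.99%. Exons of NPC2 on the opposite strand cover 3.4% of the exon bases of ISCA2, which makes its level uncertain. NPC2 had 746.8 and 744.5 normalized reads in the DETA/NO libraries, against 698.6, 698.5 and 734.7 in the untreated libraries. The part of NPC2 in the values of ISCA2 was not tested. Per kb of exon, ISCA1 had 5.86 and 6.09 times the reads of ISCA2 in the DETA/NO libraries, against 4.93, 4.59 and 4.55 times in the untreated libraries. That ratio too was higher in both DETA/NO libraries, and was chosen after the values were seen.

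LIAS, which makes the lipoyl cofactor of the pyruvate and 2-oxoglutarate dehydrogenase complexes and itself needs iron-sulfur clusters, lies on chromosome 4 at 39458587 to 39485109. It had 330.2 and 304.8 normalized reads in the DETA/NO libraries, against 304.9, 303.1 and 330.9 in the untreated libraries. The ranges of both groups nearly coincided, with a log2 fold change of 0.02 (95% interval -0.16 to 0.20; limma adjusted p = 0.876). Exons of RPL9, a ribosomal protein gene on the opposite strand, cover 3.1% of the exon bases of LIAS, and reads of RPL9 counted there would make the level of LIAS uncertain too. RPL9 had 12390 and 12720 normalized reads in the DETA/NO libraries, against 11300, 11210 and 11110 in the untreated libraries (log2 fold change 0.16; limma adjusted p = 2.72e-05), and its part in the values of LIAS was not tested. CIAPIN1, or anamorsin, which passes electrons to early cytosolic assembly, lies on chromosome 16 at 57428169 to 57447528. It had 2139 and 2063 normalized reads in the DETA/NO libraries, against 2177, 2171 and 2038 in the untreated libraries. These groups overlapped, and the 95% interval of its log2 fold change, -0.11 to 0.07 (limma adjusted p = 0.764), was the narrowest of the 8 genes. Exons of COQ9 on the opposite strand cover 3.0% of the exon bases of CIAPIN1. COQ9 had 1724 and 1665 normalized reads in the DETA/NO libraries, against 1734, 1701 and 1669 in the untreated libraries. The part of COQ9 in the values of CIAPIN1 was not tested.

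**Figure D2:**
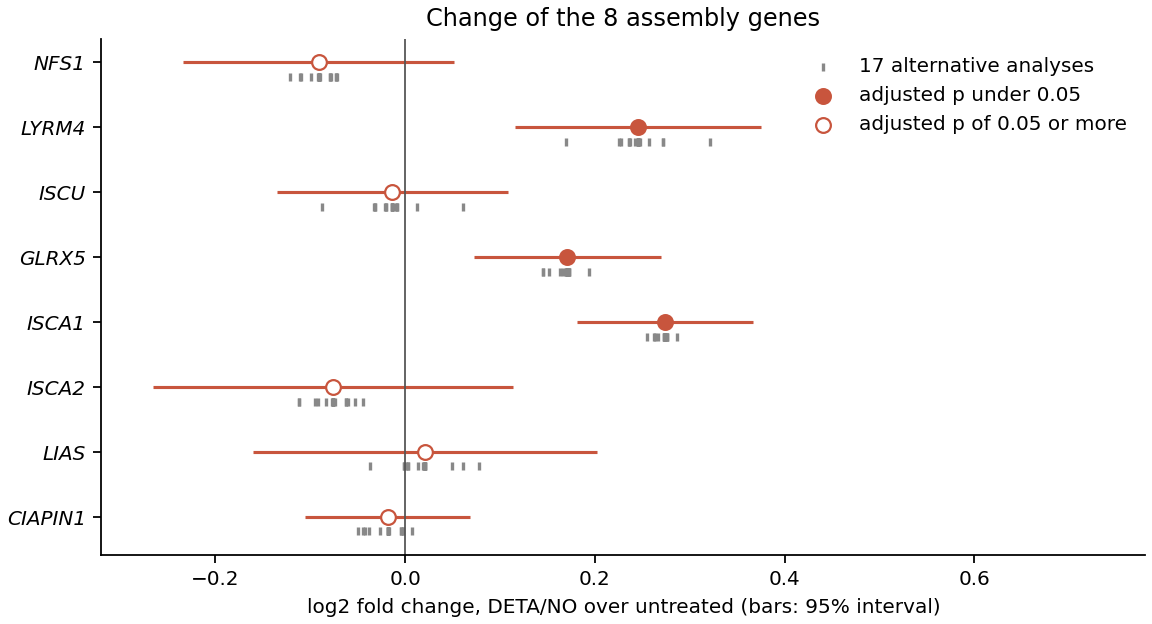
Log2 fold change of each assembly gene, DETA/NO over untreated (x axis), with its 95% interval from limma; filled points passed an adjusted p of 0.05, and grey ticks give the 17 other analyses. The intervals of LYRM4, GLRX5 and ISCA1 lie above 0, and those of the other 5 genes include 0.

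Levels of different genes were compared per kb of merged exon (GENCODE release 29), where a gene with long rare exons, such as LYRM4 with 9443 exon bases or LIAS with 11735, comes out low. On that scale CIAPIN1 was highest, with 588.0 to 609.4 reads per kb in the DETA/NO libraries and 580.7 to 620.4 in the untreated libraries. GLRX5 and ISCA1 followed. They had overlapping ranges in the DETA/NO libraries, 515.7 to 516.8 for GLRX5 and 510.9 to 519.6 for ISCA1, while GLRX5 was the higher in the untreated libraries, at 442.7 to 473.6 against 425.2 to 427.0. ISCU had 185.5 to 205.6 in the DETA/NO libraries and 192.0 to 204.2 in the untreated libraries. NFS1, ISCA2 and LYRM4 had overlapping ranges in the DETA/NO libraries, between 81.8 and 90.8. In the untreated libraries the ranges of NFS1, at 86.8 to 92.8, and ISCA2, at 86.5 to 93.9, overlapped, and LYRM4 lay below them at 71.0 to 75.4. LIAS was lowest, with 25.97 to 28.14 in the DETA/NO libraries and 25.8 to 28.2 in the untreated libraries.

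**Figure D3:**
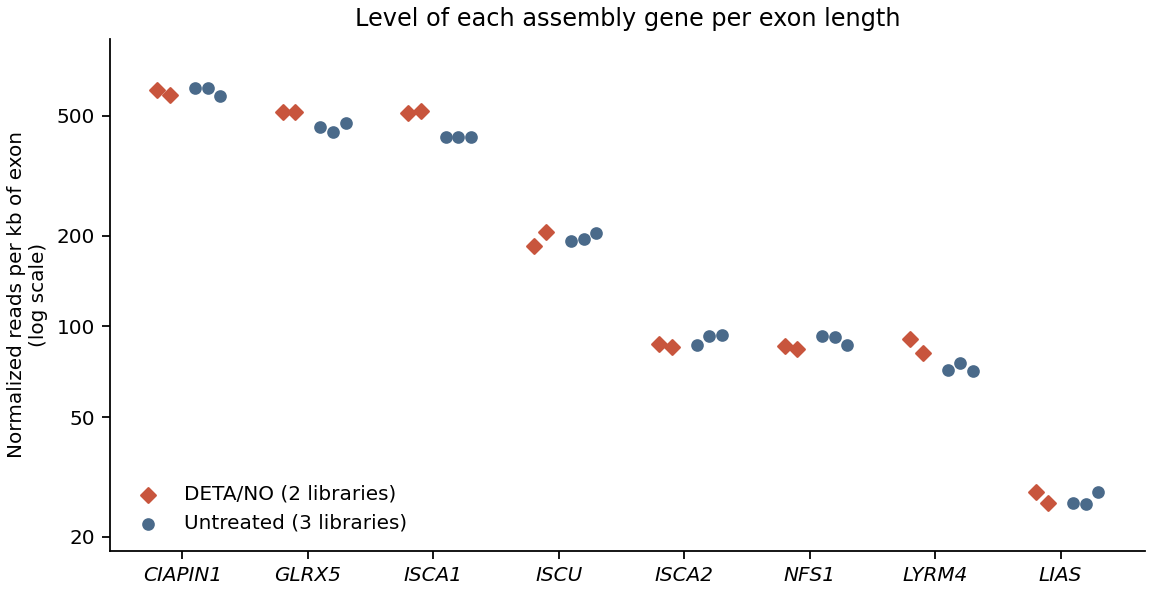
Level of each assembly gene as normalized reads per kb of merged exon (y axis, log scale) in the 2 DETA/NO libraries (diamonds) and the 3 untreated libraries (circles). CIAPIN1 is highest and LIAS lowest in both groups.

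Likeness to the 2 members with the largest change was measured over all 16409 tested genes as the root mean square difference of log2 values, centred on the untreated mean, over the 5 libraries. The genes nearest to ISCA1 were NSFL1C (0.00336), ARHGEF28 (0.00823) and NOMO1 (0.0103), and NOMO1 has near-identical copies. Those nearest to LYRM4 were C9orf40 (0.0116), LYSMD2 (0.0121) and INO80 (0.0175). With so few libraries and so many genes, these describe 5 points each.

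Of 13 tested mitochondrial assembly factors other than the members, 4 rose and 1 fell, which is 38.5% changed beside 43.4% of all tested genes, with a median log2 fold change of -0.0018 beside -0.0002 for all tested genes. GRPEL1, the exchange factor of the mitochondrial chaperone HSPA9, had 1463 and 1555 normalized reads in the DETA/NO libraries, against 1107, 1109 and 1061 in the untreated libraries, a log2 fold change of 0.47 ± 0.050 (SE; limma adjusted p = 4.37e-09). HSPA9 itself, the chaperone that helps to release the cluster from ISCU, rose by 0.18 on the log2 scale (limma adjusted p = 2.99e-06). BOLA3, which acts with NFU1 in delivery to LIAS and respiratory complexes, rose by 0.40 (limma adjusted p = 0.0078, and 0.0547 in DESeq2). FDX1, a ferredoxin, had 1364 and 1483 normalized reads in the DETA/NO libraries, against 1596, 1567 and 1516 in the untreated libraries (log2 fold change -0.13; limma adjusted p = 0.0261). That call was lost with an adjusted p of 0.376, 0.105 and 0.0746 without the shared DETA/NO library, untreated library 1 and untreated library 2. HSCB and NUBPL had log2 fold changes of -0.09 and -0.13, and neither passed. FDX2, a ferredoxin of the ISCU step, was listed at 0 in every library; such a 0 can be a counting failure.

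Of 12 tested cytosolic assembly factors other than CIAPIN1, 5 rose and 0 fell, with a median log2 fold change of 0.14. The share changed, 41.7%, was near the 43.4% of all tested genes, and the share higher was 41.7% beside 21.7%. These counts take BOLA2B and BOLA2 as separate genes. BOLA2B rose by 0.32 (limma adjusted p = 0.0031), while BOLA2 had a log2 fold change of 0.14 (limma adjusted p = 0.691). With 30.8% and 90.8% of their exon bases overlapped, the level of each is uncertain. NDOR1, the reductase that donates electrons to CIAPIN1, had 763.5 and 791.0 normalized reads in the DETA/NO libraries, against 635.5, 625.9 and 681.1 in the untreated libraries. Both DETA/NO libraries were above all untreated ones, with a log2 fold change of 0.26 ± 0.064 (SE; limma adjusted p = 0.00105), while CIAPIN1 overlapped between the groups. CIAO2B, of the complex that targets clusters to DNA polymerases and helicases, rose by 0.38 (limma adjusted p = 0.000235), and LTO1, an adaptor for ABCE1, rose by 0.21 (limma adjusted p = 0.00118). The targeting factors CIAO1 and MMS19 had log2 fold changes of -0.01 and 0.07 and did not pass. CIAO2A had -0.12 with a limma adjusted p of 0.0509, and under TMM, upper quartile and quantile scaling, with a filter at a mean of 50, and without DETA/NO library 3 or untreated library 3 it passed as lower, so that 1 gene fell. At an unadjusted p under 0.05 the count lower was 1 in limma, 1 in edgeR and 0 in DESeq2. NUBP2 was listed at 0.

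**Figure D4:**
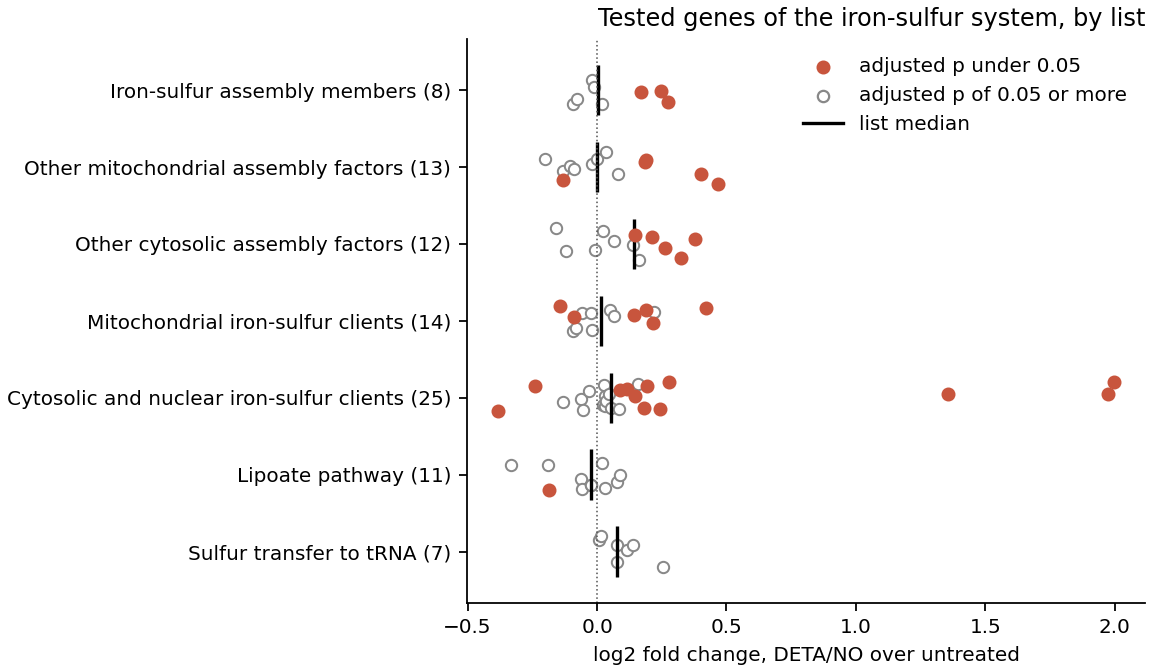
Log2 fold change, DETA/NO over untreated (x axis), of each tested gene of the 8 members and of 6 lists of related genes (y axis, number tested in brackets; points spread vertically for sight); filled points passed an adjusted p of 0.05 and bars give list medians. List medians lie between -0.02 and 0.14, and 3 of 25 tested clients outside mitochondria rose by more than 1 on the log2 scale. Of all 16409 tested genes, 362 passed and rose by at least 1.

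Proteins that carry iron-sulfur clusters were read in 2 lists. Of 14 tested mitochondrial clients, 4 rose and 2 fell (median log2 fold change 0.02), and the 42.9% changed was near the 43.4% of all tested genes. SDHB, the iron-sulfur subunit of succinate dehydrogenase, had 1813 and 1825 normalized reads in the DETA/NO libraries, against 1515, 1631 and 1644 in the untreated libraries (log2 fold change 0.19; limma adjusted p = 0.00117). NDUFS8 of respiratory complex I rose by 0.22 (limma adjusted p = 0.000638), and CISD3 by 0.42 (limma adjusted p = 0.00749, but 0.0583 without the shared DETA/NO library and 0.0551 without untreated library 1; 43.1% of its exon bases are overlapped). ETFDH and NDUFS1 fell by 0.14 and 0.09. The call of ETFDH was lost without DETA/NO library 3 (adjusted p 0.173), untreated library 1 (0.14) or untreated library 2 (0.0844). That of NDUFS1 was lost when either DETA/NO library was left out (0.225 without the shared one, 0.0615 without the other), and without untreated library 1 (0.0699) or 2 (0.118). Without the shared DETA/NO library, 2 clients rose. Ferrochelatase, FECH, had a log2 fold change of -0.06 and did not pass.

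Of 25 tested clients in the cytosol and nucleus, 10 rose and 2 fell (median log2 fold change 0.05), and 6 rose without the shared DETA/NO library. The 48.0% changed stood beside 43.4% of all tested genes, and the 40.0% higher beside 21.7%. XDH, the xanthine dehydrogenase, had 2088 and 2284 normalized reads in the DETA/NO libraries, against 869.7, 825.0 and 862.3 in the untreated libraries, a log2 fold change of 1.36 ± 0.052 (SE; limma adjusted p = 6.93e-20). AOX1, the aldehyde oxidase related to XDH, was low, at 67.6 and 53.2 normalized reads in the DETA/NO libraries and 14.3, 21.6 and 9.24 in the untreated libraries (log2 fold change 2.00; limma adjusted p = 2.19e-06). RSAD2, an interferon-induced radical enzyme named after its values were seen, had 1483 and 865.1 normalized reads in the DETA/NO libraries, against 281.9, 319.8 and 263.4 in the untreated libraries. Its log2 fold change of 1.97 (limma adjusted p = 0.0148) missed the threshold without untreated library 1, 2 or 3 (0.0701, 0.0595 and 0.0636). ABCE1, a ribosome recycling factor, rose by 0.28 (limma adjusted p = 0.000258). DPYD, which breaks down pyrimidines, had 2030 and 2167 normalized reads in the DETA/NO libraries, against 2704, 2648 and 2867 in the untreated libraries (log2 fold change -0.38; limma adjusted p = 6.25e-09). POLA1, the catalytic subunit of DNA polymerase alpha, fell by 0.24 (limma adjusted p = 1.05e-06), while POLD1 of polymerase delta had a log2 fold change of 0.19 (limma adjusted p = 0.000694). ACO1, the cytosolic aconitase that binds iron-responsive RNA elements when it lacks its cluster, had 1988 and 1796 normalized reads in the DETA/NO libraries, against 1857, 1882 and 1820 in the untreated libraries, and did not pass.

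Around LIAS, 0 of 11 tested genes of the lipoate pathway rose and 1 fell (median log2 fold change -0.02), beside 21.7% of all genes in each direction. MECR, of mitochondrial fatty acid synthesis, which supplies the precursor of lipoate, had 492.0 and 545.1 normalized reads in the DETA/NO libraries, against 601.2, 579.8 and 585.0 in the untreated libraries (log2 fold change -0.18; limma adjusted p = 0.0326). Without the shared DETA/NO library, untreated library 1 and untreated library 2 its adjusted p was 0.348, 0.0975 and 0.0576. The lipoylated subunits DLAT, DLST and DBT had log2 fold changes of -0.02, 0.08 and -0.06 and did not pass, but DLST passed as higher without DETA/NO library 3 (0.0444). At an unadjusted p under 0.05, 0 genes of this list were higher in limma, edgeR and DESeq2, and 2 were lower in limma and edgeR and 0 in DESeq2. The other of these 2 beside MECR was HSD17B8, of the same fatty acid pathway, with 91.97 and 86.41 normalized reads in the DETA/NO libraries, against 111.8, 104.0 and 122.9 in the untreated libraries (log2 fold change -0.33; limma adjusted p = 0.0605, but 0.0476 under upper quartile scaling and 0.0495 without trend and robust options). Among 7 genes listed around sulfur transfer to tRNA, a process which also draws on NFS1, 0 rose and 0 fell in limma, edgeR and DESeq2. Their median log2 fold change was 0.08, beside -0.0002 for all tested genes, and all 7 lay above 0, at 0.0063 to 0.25. At an unadjusted p under 0.05, 1 was higher in limma and edgeR, 0 in DESeq2, and 0 were lower in any of these. That gene, MPST, had a limma adjusted p of 0.0547, and 0.0433 and 0.0097 without DETA/NO library 3 and untreated library 3, while TST passed without untreated library 3 (0.0437).

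EGFR, which is strongly expressed by this line, was the highest of 8 breast epithelial markers, and together these summed to 418100 to 426000 normalized reads in the DETA/NO libraries, against 383500 to 392100 in the untreated libraries. They did not move as 1: 2 rose and 1 fell, which is 37.5% changed beside 43.4% of all tested genes. KRT19 was the gene that fell (log2 fold change -0.18, limma adjusted p = 0.00627). PGR was near 0 in both groups, with at most 5.73 normalized reads, while ESR1 had 925.2 and 1093 in the DETA/NO libraries, against 832.4, 845.6 and 822.5 in the untreated libraries. With ERBB2, the 3 receptor genes summed to 2357 to 2625 in the DETA/NO libraries and 2675 to 2806 in the untreated libraries. That sum joins opposite changes. ESR1 had a log2 fold change of 0.27 (limma adjusted p = 0.000675) and ERBB2 one of -0.35 (limma adjusted p = 3.36e-07). Some markers of other cell types also differed between the groups. The 4 immune markers, nearly all PTPRC, summed to 33.2 to 35.5 in the DETA/NO libraries and 8.83 to 17.6 in the untreated libraries, with CD68 at 0 in all and CD3E at 0 to 1.11. The 3 endothelial markers summed to 254.9 to 290.6 in the DETA/NO libraries and 171.7 to 179.7 in the untreated libraries, a difference that was mostly CDH5. The 4 fibroblast markers, nearly all COL1A1, summed to 840.4 to 848.8 in the DETA/NO libraries and 576.3 to 634.9 in the untreated libraries. The 3 adipocyte markers, with FABP4 at 0, summed to 39.9 to 41.8 in the DETA/NO libraries and 43.96 to 70.63 in the untreated libraries. Their part in the values above was not tested. In bulk RNA, a change in the number of cells of a type and a change in RNA per cell cannot be told apart.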

How the data were processed

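RNA sequencing of total RNA was done on the samples described above, and each deposited file holds 1 normalized read count (signal) per gene. Without roles or order, the submitters' processing notes name DESeq2 1.38.3 under R 4.2.2, featureCounts 2.0.3 of Subread, TopHat2 2.1.1 with Bowtie2 2.5.0.0, MultiQC 1.14, FastQC 0.11.9, deepTools 3.5.1 and the build GRCh38. Which annotation was used, and whether by strand, is not given in the sources used here. For all libraries, 100% of the values above 0 were whole multiples of the value of 1 read (tolerance 0.01), so whole reads were recovered from the deposited signal. Groups came from the sample titles; identical files were counted once. In each file 27 row names had become dates (0.246% of reads); they stayed in the tests.

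The main test was limma 3.58.1 (R 4.3.3) on log2(value + 1), its eBayes step set to trend and robust, over genes whose mean was at least 10, with Benjamini-Hochberg adjustment over all genes; fold changes on that scale understate those of low genes. Alternatives were edgeR 4.0.16 and DESeq2 1.42.0 on recovered reads, other scalings, filters and pseudocounts, limma without trend and robust, replicate blocks and leaving out each library. The tests were checked on simulated counts. Counting errors cover counting only, since reads carried no molecular identifiers. Gene positions and exon overlaps are from GENCODE release 29 and promoter sequences from RefSeq (GRCh38.p14).

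The 8 members and all lists were chosen with earlier results of these data known. By rule, all members were named, with up to 3 rising and 3 falling genes of each list by adjusted p and the 3 genes most like each of the 2 members with the largest change; other genes were named after their values were seen. A few genes of the lists are counted but not reported singly here. Scripts used Python 3.11.15, pandas 2.3.3 and matplotlib 3.10.9.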

Additional observations from a re-analysis of the deposited data

How the results depend on the processing

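The 8 members were recomputed under 17 alternatives each. Of 136 values, 127 kept their direction and side of the threshold. In 6, the sign turned in a gene that did not pass. LIAS had -0.0016 with the replicate block and the shared library as number 1, the same estimate as without untreated library 2. The other 5 came from leaving out a library, with ranges over the libraries left out of -0.0875 to 0.0609 for ISCU, -0.0495 to 0.0074 for CIAPIN1 and -0.0367 to 0.0783 for LIAS; ISCU turned without the shared library (0.0609) or untreated library 3 (0.0124), CIAPIN1 without DETA/NO library 3 (0.0074), and LIAS without the shared library (-0.0367) or untreated library 2 (-0.0016). In 3, a call was lost: LYRM4 (adjusted p 0.0524) and GLRX5 (0.0541) in limma without trend and robust options, and LYRM4 without the shared DETA/NO library. The members higher were 1 without trend and robust options and 2 to 3 with a library left out; 0 were lower under any alternative. Of all genes, 2262 were higher without trend and robust options, and 2776 to 3573 higher and 2803 to 3504 lower with a library left out. Other scalings moved the median log2 fold change of all genes to between -0.0197 and -0.0034.

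Among the lists, limma without trend and robust options gave 0 mitochondrial assembly factors lower, 3 cytosolic assembly factors higher, 1 mitochondrial client higher and 0 lower, and 6 other clients higher. DESeq2 gave 2 mitochondrial assembly factors higher and 0 lower, 2 mitochondrial clients higher and 0 lower, and 0 lipoate genes lower. Cytosolic assembly factors lower were 1 under TMM, upper quartile and quantile scaling and with a filter at a mean of 50. Lipoate genes lower were 2 under upper quartile and 0 under quantile scaling. Without a filter 1 mitochondrial client was lower, and with a filter at a mean of 50, 1 sulfur transfer gene was higher.

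With 1 library left out, the ranges of calls were 3 to 4 higher and 0 to 1 lower for mitochondrial assembly factors, 4 to 5 and 0 to 1 for cytosolic ones, 2 to 5 and 0 to 3 for mitochondrial clients, 6 to 9 and 2 to 3 for other clients, 0 to 1 and 0 to 1 for lipoate genes, and 0 to 2 and 0 to 0 for sulfur transfer. Leaving out 1 DETA/NO library leaves a lone library assumed to vary like the untreated ones.

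The main test did not pair the libraries by replicate number. Deviations from the group means of same-numbered libraries correlated at 0.0293 (number 1), 0.00106 (number 2) and 0.0301 (number 3). With 2 DETA/NO libraries, their deviations mirror each other, and the shared library stands for both numbers 1 and 2. These values therefore cannot decide whether the numbers pair the libraries. With the replicate block and the shared library as number 1, 0 mitochondrial assembly factors and 0 mitochondrial clients were lower; as number 2, the same 2 counts and that of lipoate genes lower were 0. In each blocked fit, the untreated library without a DETA/NO partner adds nothing to the log2 fold change. The blocked log2 fold changes are therefore those without untreated library 2 (shared library as number 1) or untreated library 1 (as number 2). Depth limits ISCA2 and LIAS most, with counting errors of 5.99% and 5.58%.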
